A study of Mus musculus with 2 samples.

Results

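Prostaglandins are lipid signals made from arachidonic acid. The transcripts of the enzymes that make them and of the receptors that bind them were examined in mouse embryonic fibroblasts (MEFs). MEFs are fibroblasts cultured from embryos. The set consists of 10 genes chosen by name, with earlier results of these data known. It holds the cyclooxygenases Ptgs1 and Ptgs2, the terminal synthases Ptges, Ptgis and Ptgds, and the receptors Ptger1, Ptger2, Ptger3, Ptger4 and Ptgfr. Of these, 9 genes had a probe on the array, out of 27745 gene names in all, and they were covered by 14 probes in 23 spots on each array. Ptger1 had no probe under its name, a synonym or an accession.

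The study compared MEFs of the genotype LATS2-/- (KO) with MEFs of the genotype LATS2+/+ (WT), both from mice of strain C57BL/6J and neither treated. LATS2 is a kinase of the Hippo growth-control pathway. On each of 2 arrays both RNAs were hybridised together, with KO in Cy5 and WT in Cy3 on the first array and with the dyes exchanged on the second. The labels name no embryo, litter, passage or biological replicate, nor the exons that the KO allele lacks, and both arrays are treated as repeated hybridisations of 1 pair of RNAs. An SD given below is the SD between these 2 arrays. It measures hybridisation and dye error only, and the calls below use no p-value. The p-values in the section on processing see the same error alone and are not tests of a difference between genotypes. The targeted gene did not settle the label. All 4 of its probes were detected, and 3 went against the label, with mean log2 ratios of KO over WT of 0.56, 0.56 and 0.63. These 3 lie close together (chromosome 14, 56644080 to 56645305) and 2 of them overlap, so they read 1 stretch of the gene. The other probe lies apart, at 56676512 to 56676571, and went with the label at -0.35. Whether these probes lie in the deleted part is not known here. Every direction below therefore rests on the labels, and the wording "RNA labelled KO" or "RNA labelled WT" is kept for that reason.

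A cyclooxygenase turns arachidonic acid, which phospholipases free from membranes, into prostaglandin H2. Terminal synthases turn that intermediate into prostaglandin E2, D2, F2 alpha, prostacyclin or thromboxane, each of which binds its own G protein-coupled receptors. Ptgs1 is known as the form that many cells make at a steady level, and Ptgs2 as the form that growth factors and inflammatory cytokines induce within hours, in fibroblasts among other cells. Prostaglandin E2 is a major product of cultured fibroblasts.

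The promoters of both cyclooxygenase genes are shown because these genes carried the differences described below. RefSeq promoters (build GRCm38.p6, 250 bases before to 50 bases after the start of the gene) were found for 8 of the 10 genes. That of Ptgs1 is chr2:36230176-36230475, plus strand, and that of Ptgs2 is chr1:150099781-150100080, plus strand. Capitals mark matches, on either strand, to the letters TATAAA (the core promoter box), TGACG (the core of a cAMP response element), CACGTG (E-box), TGAGTCA (AP-1), GGGCGG (Sp1), CATTCC (TEAD) and TTGCGCAA (C/EBP).
Ptgs1: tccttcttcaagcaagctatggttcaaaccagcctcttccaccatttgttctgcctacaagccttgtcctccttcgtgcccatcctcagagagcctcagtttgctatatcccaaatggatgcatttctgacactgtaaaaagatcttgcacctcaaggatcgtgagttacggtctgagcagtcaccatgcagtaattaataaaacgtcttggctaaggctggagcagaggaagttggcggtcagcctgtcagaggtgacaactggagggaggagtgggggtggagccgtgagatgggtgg
Ptgs2: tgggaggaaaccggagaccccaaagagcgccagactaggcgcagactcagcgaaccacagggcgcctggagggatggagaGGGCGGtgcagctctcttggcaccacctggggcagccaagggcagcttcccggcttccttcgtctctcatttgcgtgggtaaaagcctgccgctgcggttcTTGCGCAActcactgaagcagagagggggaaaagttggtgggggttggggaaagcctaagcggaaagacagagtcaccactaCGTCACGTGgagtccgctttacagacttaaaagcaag

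The Ptgs1 window held none of these 7 letter strings, which says only that these letters are not in this window. The Ptgs2 window held 4 of them. TTGCGCAA stood 69 bases before the start and occurred in 60 of 32851 mouse promoters of the same length, or 0.183%. GGGCGG stood 170 bases before the start and occurred in 35.7% of promoters. The match to TGACG, read on the minus strand, began at base 14 counted from the RefSeq start, and overlapped the CACGTG that began at base 17. Where transcription starts in these cells was not measured. These strings occurred in 20.8% and 7.15% of promoters. The matches describe the reference sequence and are not evidence of binding in these cells.

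Both cyclooxygenase genes differed at least 2-fold between the RNAs, in opposite directions. Ptgs1 was 7.95-fold lower in the RNA labelled KO, and Ptgs2 was 2.14-fold higher. No other gene of the set was called. Here a gene was called when its brightest probe differed at least 2-fold on both arrays with the same sign, and the scanner software flagged it as well above background on both in the RNA with the higher level. Thus 2 of the 9 measured genes were called, or 22.2%, against 3.20% of all 27579 genes with a value on both arrays. Both were among the 3 members that were well above background in both RNAs. Of all 14723 such genes 5.49% were called, 2.81% higher and 2.68% lower. With so few members, chosen with earlier results of these data known, these counts describe the set and are not a test of it. The median log2 ratio of the 9 genes was 0.04, against -0.0003 over all genes.

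**Figure D1:**
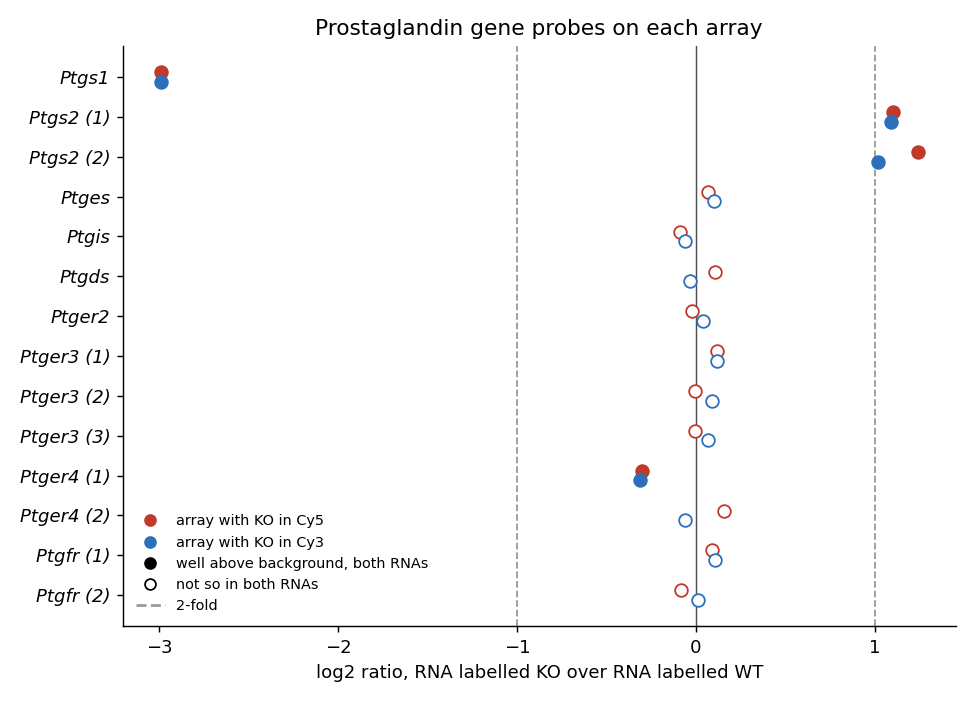
Log2 ratio of the RNA labelled KO over the RNA labelled WT (horizontal axis, log2 units) for each of the 14 probes, with 1 point per array, filled where the probe was well above background in both RNAs on both arrays. Ptgs1 sits at -2.99 on both arrays, both Ptgs2 probes lie at or above 1.02, and every other probe lies between the dashed 2-fold lines.

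Ptgs1 was measured by 1 probe (chromosome 2, 36074133 to 36074192, build mm8, as are all probe positions given here), in 1 spot per array. Its normalised intensity in the RNA labelled KO was 409 units in Cy5 and 422 units in Cy3. In the RNA labelled WT it was 3250 units in Cy3 and 3360 units in Cy5. The 4 values thus fell into separate pairs by RNA, with no overlap. That each RNA had nearly the same level in either dye follows from the normalisation, which removes dye differences. Raw signals differed by dye but did not overlap either. They were 606 units in Cy5 and 249 units in Cy3 in the RNA labelled KO. In the RNA labelled WT they were 2050 units in Cy3 and 5240 units in Cy5. The log2 ratio was -2.99 on each array, with a mean of -2.99 ± 0.00275 (SD, n = 2 arrays), so that the RNA labelled KO held 12.6% of the WT level. For comparison, single probes had an SD between arrays of 0.137, pooled over the 22357 probes that were well above background in both RNAs, and the very small SD of this probe is 1 draw from that spread. Among the 14723 genes well above background in both RNAs, Ptgs1 had the 22nd lowest ratio, within the lowest 0.149%. Before normalisation the background was far below the signal in both RNAs, with raw signals of 606 and 249 units in the RNA labelled KO over local backgrounds of 35.0 and 29.5 units.

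Ptgs2 was measured by 2 probes that do not overlap. The brighter (chromosome 1, 151869504 to 151869563) had an intensity of 748 units in Cy5 and 687 units in Cy3 in the RNA labelled KO. In the RNA labelled WT it had 348 units in Cy3 and 322 units in Cy5. After normalisation both values of the RNA labelled KO were above both values of the RNA labelled WT. The raw signals overlapped, with 1090 units in Cy5 and 439 units in Cy3 in the RNA labelled KO. In the RNA labelled WT they were 212 units in Cy3 and 461 units in Cy5. Its log2 ratios were 1.10 and 1.09, with a mean of 1.10 ± 0.00683 (SD, n = 2 arrays), and 2.70% of the 14723 genes detected in both RNAs had a ratio as high or higher. The call sits close to the 2-fold threshold and depended on the removal of the dye effect. When each array was only centred on its median, in place of the loess fit, the mean stayed at 1.10 but the single arrays gave 1.76 and 0.43, and the gene was no longer called. Ptgs1 gave -2.20 and -3.76 under the same setting and was still called.

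The second Ptgs2 probe (chromosome 1, 151869832 to 151869891) was spotted 10 times on each array. Its intensity was 652 and 565 units in the RNA labelled KO, with KO in Cy5 and in Cy3, and 277 and 278 units in the RNA labelled WT on the same arrays. With KO in Cy5 the log2 ratios of the spots ran from 1.17 to 1.35 with a median of 1.24, and 10 of 10 spots reached 2-fold. With KO in Cy3 they ran from 0.89 to 1.10 with a median of 1.03, and 8 of 10 reached it. The spots of the 2 arrays did not overlap, so that the arrays differed from each other by more than the spots within an array (SD 0.0474 and 0.0629). The mean of both arrays was 1.13 ± 0.151 (SD, n = 2 arrays), or 2.19-fold. The 2 probes thus differed from each other by less than the SD between arrays.

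**Figure D2:**
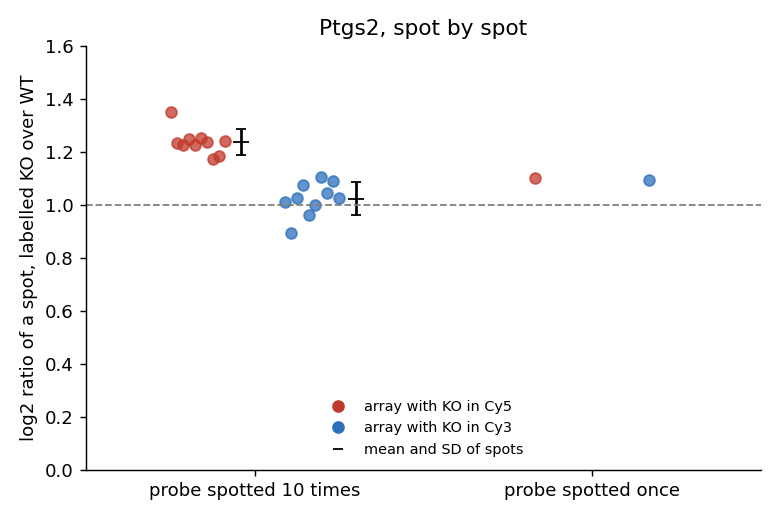
Log2 ratio of single Ptgs2 spots (vertical axis, log2 units) for the probe spotted 10 times and the probe spotted once, by array, with the mean and SD of the repeated spots. All spots lie above 0, and the repeated spots centre on 1.24 with KO in Cy5 and on 1.03 with KO in Cy3, next to the dashed 2-fold line.

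The ratios of both cyclooxygenases come from the same hybridisations. On each array the log2 ratio of Ptgs2 exceeded that of Ptgs1 by 4.09, a 17.0-fold difference between their ratios. The levels of Ptgs1 and Ptgs2 were not set against each other, because intensities of different probes do not share a scale.

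None of the terminal synthases in the set was well above background in both RNAs on both arrays. Ptges, the inducible synthase of prostaglandin E2 (chromosome 2, 30714327 to 30714386), had log2 ratios of 0.07 and 0.10. Ptgis, the prostacyclin synthase (chromosome 2, 166898010 to 166898069), had ratios of -0.09 and -0.06. Neither passed the background flag in either RNA on either array, so these ratios compare values at the lower limit of the arrays. Ptgds, a prostaglandin D2 synthase (chromosome 2, 25289331 to 25289862), passed in the RNA labelled WT on both arrays and in the RNA labelled KO on 1 array. Its intensities were 83.6 and 75.8 units in the RNA labelled KO and 77.6 and 77.5 units in the RNA labelled WT. They overlapped, and the mean log2 ratio was 0.04 with ratios of 0.11 and -0.03 on the single arrays.

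Ptger4, a receptor for prostaglandin E2 that raises cAMP, was the only receptor of the set well above background in both RNAs on both arrays. That held for 1 of its 2 probes (chromosome 15, 5181634 to 5181693). Its normalised intensity was 88.9 and 94.0 units in the RNA labelled KO and 109 and 116 units in the RNA labelled WT. These values did not overlap, but they are repeated readings of 1 pair of RNAs after removal of the dye difference. The raw signals did overlap. They were 82.5 units in Cy5 and 56.2 units in Cy3 in the RNA labelled KO. In the RNA labelled WT they were 66.2 units in Cy3 and 125 units in Cy5. The log2 ratio was -0.30 and -0.31 on the single arrays, with a mean of -0.30 ± 0.00692 (SD, n = 2 arrays), or 1.23-fold lower, which is below the 2-fold threshold. Among the detected genes 21.2% had a ratio as low or lower. The scanner software's own ratio of this dim probe was -0.72, or 1.65-fold lower. An offset of 10 in place of 50 in the background step gave -0.53, and no background subtraction gave -0.32. The other Ptger4 probe (chromosome 15, 5153890 to 5153949) was not above background and gave 0.16 and -0.06.

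The remaining receptors were at the background of the arrays. Ptger2, which also couples prostaglandin E2 to cAMP, had log2 ratios of -0.02 and 0.04. Ptger3, the prostaglandin E2 receptor that lowers cAMP, had 3 probes with mean ratios of 0.12, 0.05 and 0.03. Ptgfr, the receptor for prostaglandin F2 alpha, had ratios of 0.09 and 0.11 on its brighter probe, which passed the flag once, in the RNA labelled KO in Cy5, and a mean of -0.04 on the other. In all, for 9 of the 14 probes neither RNA passed the flag on both arrays. Their intensities lay between 56.3 and 79.4 units, while the lowest signal that passed the flag was between 59.8 and 67.3 units depending on array and dye. Their single-array ratios lay between -0.09 and 0.16, and between -0.52 and 1.23 as the scanner software's own ratio, which gave a mean of 0.61 for Ptgis and 0.71 for Ptgfr. These arrays therefore give no measured difference for Ptges, Ptgis, Ptger2, Ptger3 or Ptgfr, and do not show that their transcripts were absent or equal.

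**Figure D3:**
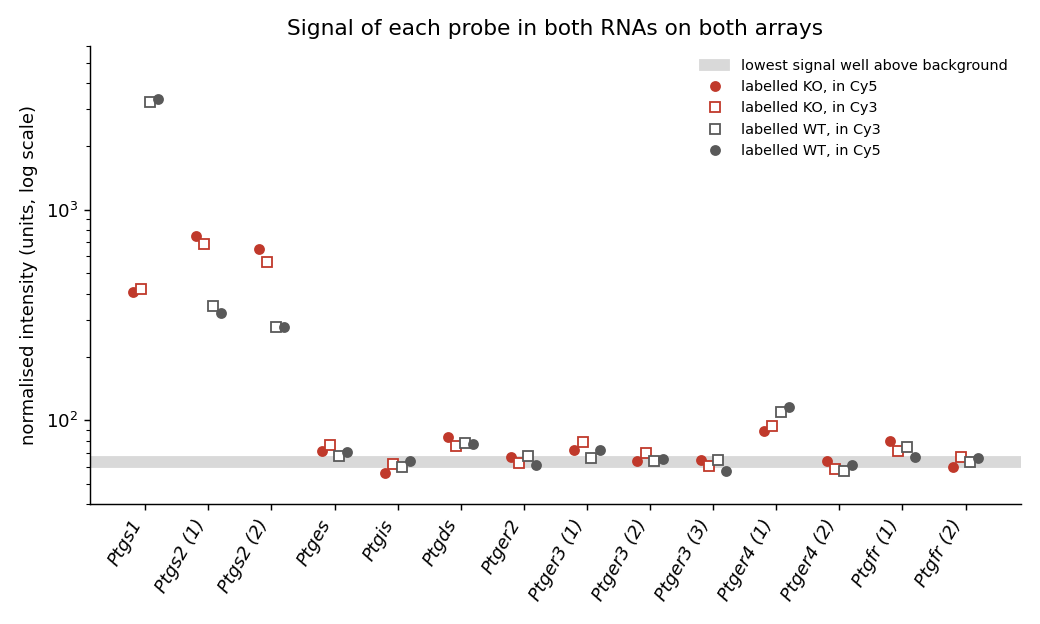
Normalised intensity (vertical axis, arbitrary units, log scale) of each of the 14 probes in both RNAs on both arrays. The grey band marks the lowest signals that passed the background flag, from 59.8 to 67.3 units, Ptgs1, both Ptgs2 probes and 1 Ptger4 probe lie at 88.9 units or above in all 4 measurements, and the other 10 probes lie at 83.6 units or below. Heights of different probes are not comparable.

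The other genes of the prostanoid pathway were taken from a list of 30, all with a probe and 22 of them well above background in both RNAs. Of the 30, 3 were called higher and 1 was called lower, which is 13.3% of the list and 18.2% of its detected genes, against 3.20% of all genes and 5.49% of all detected genes. The median log2 ratio was 0.0039. By role, the 10 phospholipases and the 4 further terminal synthases held no call. The 6 ketone reductases held 2 calls, both higher, the 5 genes of breakdown and transport held 1, higher, and the 5 further receptor genes held 1, lower.

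Cbr1 and Cbr3 encode carbonyl reductases, of which Cbr1 can reduce prostaglandin E2 to prostaglandin F2 alpha. Cbr1 (chromosome 16, 93498792 to 93498851) had intensities of 2140 and 1800 units in the RNA labelled KO and 508 and 495 units in the RNA labelled WT. Its log2 ratios of 2.07 and 1.86 gave a mean of 1.97 ± 0.149 (SD, n = 2 arrays), or 3.91-fold higher. Cbr3, from the same stretch of the chromosome (93579415 to 93579474), had 4020 and 4080 units against 1630 and 1630 units, a mean of 1.32 ± 0.0165 (SD, n = 2 arrays) and a 2.49-fold higher level. In neither gene did the normalised values of the RNAs overlap. Each had 1 probe, and whether one transcript could bind the probe of the other was not analysed here. The other reductases did not go the same way: Cbr2 had a ratio of -0.04, and the aldo-keto reductases Akr1b3, Akr1b8 and Akr1c18 had ratios of -0.37, -0.97 and -0.91. Akr1c18 passed 2-fold on 1 of the arrays (-1.01 and -0.82) and Akr1b8 on neither.

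Ptgr2, which reduces 15-keto-prostaglandin E2 and is listed on the array under the older name Zadh1, was higher in the RNA labelled KO. Its brightest probe (chromosome 12, 85203711 to 85203770) had 1440 and 1300 units against 443 and 434 units, a mean log2 ratio of 1.65 ± 0.0848 (SD, n = 2 arrays), or 3.13-fold. A second probe gave 1.46 and 1.17 on the single arrays, while the third, which was not above background, had a mean of -0.02. Averaged over all 3 probes the ratio was 0.98 and the gene was no longer called. Ptgr1, a related reductase, had 0.01, the prostaglandin transporter Slco2a1 had 0.11, and Abcc4, an exporter, had -0.45. Hpgd, the dehydrogenase that inactivates prostaglandins, was not above background.

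Tbxa2r, the thromboxane receptor, was the receptor gene that passed 2-fold. Its probe (chromosome 10, 80737904 to 80737963) had 159 and 169 units in the RNA labelled KO and 440 and 448 units in the RNA labelled WT. These normalised values did not overlap. The mean log2 ratio was -1.44 ± 0.0364 (SD, n = 2 arrays), or 2.71-fold lower. Ptgfrn, a membrane protein that binds the prostaglandin F2 alpha receptor, had a ratio of -0.88, nearly equal on both arrays. The prostacyclin receptor gene Ptgir and the prostaglandin D2 receptor gene Ptgdr2 each had a ratio of 0.02.

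Among the enzymes around the cyclooxygenase step, the phospholipase Pla2g4a, which supplies arachidonic acid and lies 277 kb from the Ptgs2 probe, had a ratio of 0.12. Pla2g6 had a mean of 0.90 ± 0.151 (SD, n = 2 arrays) and was not called. Pla2g4b, Pla2g4c and Pla2g2f had ratios of 0.20, -0.05 and 0.01. Of the terminal synthases outside the set, Ptges2 had 0.01, the thromboxane synthase Tbxas1 had 0.0020, and Ptges3, a synthase of prostaglandin E2 that is also a chaperone of steroid receptors, had -0.46.

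**Figure D4:**
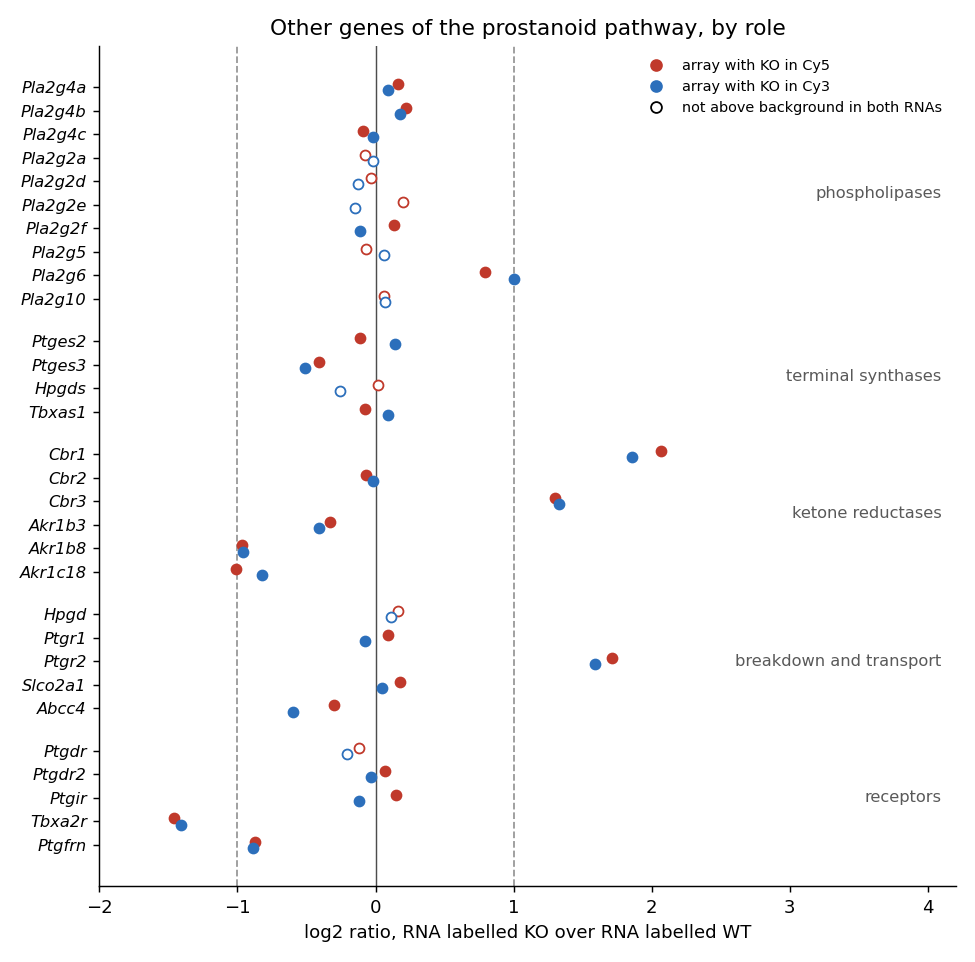
Log2 ratio of the RNA labelled KO over the RNA labelled WT (horizontal axis, log2 units) on each array for the 30 other prostanoid pathway genes, grouped by role, with open points where the gene was not well above background in both RNAs. Cbr1, Cbr3 and Ptgr2 lie to the right of the dashed 2-fold lines on both arrays and Tbxa2r to the left.

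**Figure D5:**
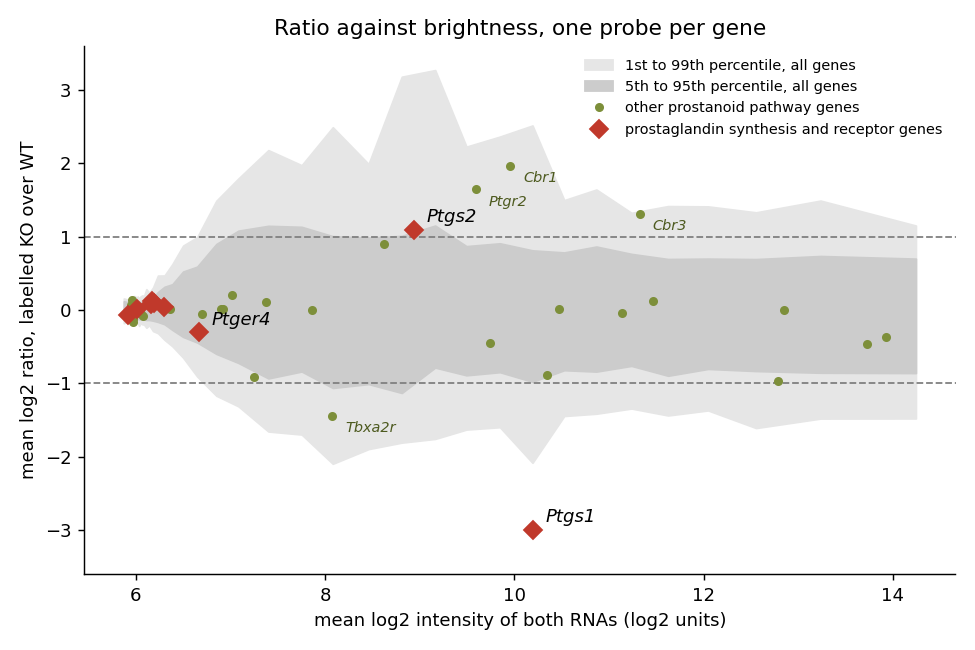
Mean log2 ratio (vertical axis) against mean log2 intensity of both RNAs (horizontal axis), with the prostaglandin synthesis and receptor genes as diamonds, the 30 other pathway genes as dots, and bands for the percentiles of all 27579 genes at the same brightness. Ptgs1 at -2.99 lies below the band of the 1st to 99th percentile, Ptgs2 at 1.10 lies inside it, and the undetected genes crowd at the dim end, where the bands are narrow.

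Branches next to the pathway were read from further lists. None of the 13 genes of the leukotriene and lipoxygenase branch, which uses the same arachidonic acid, was called, and 4 of them were above background in both RNAs. Of 14 listed names of genes known to respond to cAMP, the second messenger of Ptger2 and Ptger4, 12 had a probe. Icer, listed apart from Crem, and Pck1 had none. Of those with a probe, 8 were above background in both RNAs. Of these 8, 12.5% or 1 gene was called: Nr4a1, a nuclear receptor of the immediate early response, was higher, with 10000 and 10400 units against 4790 and 5050 units and a mean log2 ratio of 1.05 ± 0.0193 (SD, n = 2 arrays). The median of the list was 0.04. Over all genes 3.20% were called, and 5.49% of those detected in both RNAs. In lists this short, 0 and 1 calls set neither list apart from other genes.

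Of 13 genes that encode inducers of Ptgs2 or parts of their signalling, 9 were above background in both RNAs. Of these, 3 were called, in both directions, or 33.3% against 5.49% of all detected genes. The cytokine gene Il6 was higher, with 249 and 207 units in the RNA labelled KO and 91.1 and 75.8 units in the RNA labelled WT, a log2 ratio of 1.45 ± 0.00182 (SD, n = 2 arrays) and a 2.73-fold difference. The probe was dim in the RNA labelled WT, and the highest mean ratio among the alternatives was 3.18. Tlr2, a receptor for bacterial lipoproteins, was 2.41-fold lower, with a log2 ratio of -1.27, and Egr1, an immediate early transcription factor, was 15.4-fold lower, with a log2 ratio of -3.95. The median of the list was 0.01. Across these 4 lists of pathway and neighbouring genes 8 genes were called, 5 higher and 3 lower, or 18.6% of the 43 detected genes against the same 5.49%. The lists were chosen with earlier results of these data known, so these shares describe them and are not a test. With median centring in place of loess Cbr1, Il6 and Egr1 were still called, while Cbr3, Ptgr2, Tbxa2r, Nr4a1 and Tlr2 passed 2-fold on 1 array only.

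Markers of fibroblasts and of other cell types were measured in the same RNAs, since a change in the cells present and a change in RNA per cell cannot be told apart in bulk RNA. All 10 fibroblast markers were above background in at least 1 RNA, with a median log2 ratio of -0.33 and no call. Their ratios went in both directions, from -0.89 for Vim to 0.89 for Fn1. The Vim probe was dim, with 74.8 and 79.2 units in the RNA labelled KO and 130 and 156 units in the RNA labelled WT. It was above background on both arrays in the RNA labelled WT alone. Without Vim the lowest ratio was -0.56, for Col1a1. The summed intensity of the 10 fibroblast markers was 116000 to 123000 units in the RNA labelled KO and 138000 to 145000 units in the RNA labelled WT. Of 6 adipocyte markers 4 were above background in at least 1 RNA, and their sum was 4890 to 5560 units against 1040 to 1070 units. Of these, Pparg was 7.13-fold and Lpl 6.86-fold higher, Cebpa had a log2 ratio of -0.70, Fabp4 was above background in the RNA labelled KO alone, and Adipoq and Plin1 were not above background. These sums add probes that do not share a scale and are set by the brightest of them, so the median ratio of each list is given as well, 0.48 for the adipocyte list. Of 6 smooth muscle markers 5 were above background, and the median log2 ratio of the list was -0.25. Cnn1 was called lower at -2.11, and Myh11, Smtn, Tagln and Acta2 had ratios of -0.46, -0.53, 0.13 and 0.79. The sum, 48600 to 49700 units against 40200 to 42000 units, ran the other way from the median and was set mainly by Acta2 and Tagln. Of 10 macrophage markers 4 were above background, and the median log2 ratio of the list was 0.01. Lyz2 was called higher at 1.10 and Cd14 lower at -1.05, Csf1r and Cd68 had ratios of -0.05 and 0.14, and the defining markers Ptprc, Adgre1 and Itgam were not above background. The sum, 2020 to 2030 units against 1530 units, followed Lyz2, with 1290 and 1280 units against 600 and 595 units. Of 7 epithelial markers 3 were above background, with a median ratio of 0.01, a sum of 767 to 817 units against 529 to 538 units and Krt19 called higher at 2.12. None of the 7 endothelial markers, 1 of 7 mast cell markers and 1 of 5 mesothelial markers was above background. The part of these marker differences in the values of Ptgs1 and Ptgs2 was not tested.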

How the data were processed

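Agilent 2-colour whole mouse genome arrays were read with Agilent Feature Extraction 10.5.1.1, per the submitters' processing notes. The authors deposited, for each spot, its mean signal and local background median as intensity in arbitrary units, the software's background flags, and its log10 ratio of Cy5 over Cy3. A second deposited table gives log2 ratios and served only as an alternative. Genes were named by the files' own symbols.

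With limma 3.58.1 in R 4.3.3, intensities were background corrected (normexp, offset 50) and each array was normalised by loess. The offset shrinks the ratios of dim probes. The 1639 control spots of 45018 per array were left out, and so were spots flagged as outliers (0.899% and 0.871%). The spots of a probe were averaged, the second array's sign was turned, and levels come from Aquantile scaling after loess. The brightest probe stands for a gene. The threshold of 2-fold is that of the study's methods. No spot was saturated, and median raw signals were 58.2 to 98.5 units. The number of arrays limits the precision. The calculation was tested on simulated data.

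The genes and lists were chosen with earlier results of these data known. Every probe of the set is given, as are the called genes of the lists and the detected genes of the prostanoid list. Plots and tables used Python 3.11.15.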

Additional observations from a re-analysis of the deposited data

How the results depend on the processing

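Ptgs1 was called lower under every alternative except the methods' t-test after Benjamini-Hochberg adjustment, and its mean log2 ratio lay between -3.24 and -2.98. Ptgs2 lay between 1.09 and 1.28 and lost its call under that test and under median centring, which left 0 members called higher. Ptger4 ranged from -0.72 to 0.05, the latter from its other probe. Leaving out either array left 1 member called in each direction, 9 to 10 pathway genes called and a member median of 0.04 to 0.07. Median centring called 391 genes (252 higher, 139 lower) in place of 883, moved the share called higher from 53.1% to 64.5%, and left 3 pathway genes (2 higher, 1 lower). Feature Extraction's own ratio and the deposited table each called 1807 genes (941 higher, 866 lower), with member medians of 0.17 and 0.18. The median was -0.13 when members detected in neither RNA were left out. At 1.5-fold 2257 genes (1118 higher, 1139 lower) and 13 pathway genes (7 higher, 6 lower) were called. At its unadjusted threshold the methods' t-test called 766 genes, with p-values of 0.000414 for Ptgs1 and 0.0028 for Ptgs2. After Benjamini-Hochberg adjustment of that t-test 0 genes, 0 members in either direction and 0 pathway genes passed, with adjusted values of 0.286 and 0.313. Limma after Benjamini-Hochberg called 1006 genes, the same number as a 2-fold mean of both arrays without a test. Limma's adjusted p-values were 5.05e-27 for Ptgs1, 3.53e-13 for Ptgs2 and 0.00724 for Ptger4, and these tests see hybridisation error only. Neither called member changed sign under any alternative, nor did the 8 called pathway genes under the 8 alternatives that recompute ratios. With the mean over all probes 7 pathway genes were called (4 higher, 3 lower). The cause of these shifts was not tested. No paired analysis was possible because the labels give no replicates beyond 1 dye swap. Signal over background limits the dim members: Ptgis, Ptgds and Ptger2 changed sign under 3, 3 and 4 of 10 alternatives.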

Other observations

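Genes within 500 kb of the Ptgs1, Ptgs2 and Ptger4 probes were looked at after the values of these genes had been seen. Of 15 genes near Ptgs1, 6 of them above background in both RNAs, none was called. Lhx6, 170 kb away, had the ratio farthest from 0 among them, at -0.73. Of 7 genes near Ptgs2 the extracellular matrix gene Hmcn1, 456 kb away, was called lower. In the RNA labelled KO its probe did not pass the background flag, so the difference is a bound, at least 2.52-fold lower, taken on each array against the higher of its own signal and the lowest signal that did pass. Of 9 genes near Ptger4 none was called. Over all genes 3.20% were called, and 5.49% of those well above background in both RNAs. With so few genes in each window, these counts do not set the neighbours apart from other genes.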
